A study of Mus musculus with 6 samples.

Results

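The genes described here are 35 mouse genes of the type I interferon response: both chains of the interferon receptor, part of the signalling machinery behind it, and genes that interferon induces. They were taken by symbol from a list of 35 names, and all 35 were found among the 39017 genes of the deposited count table. Each was compared between RNA precipitated with anti-HA beads (IP, 3 libraries) and RNA of the same tissue taken without antibody (input, 3 libraries). All 6 libraries came from hippocampus of female C57BL/6 mice that carried both Tmem119-Cre and RiboTag. In RiboTag mice Cre activity adds an HA epitope to the ribosomal protein RPL22, and the promoter of Tmem119, a gene of microglia, drives Cre here. The beads therefore pull down tagged ribosomes with the RNA they carry. Each IP library shares a title code with 1 input library, and these pairs are numbered 1 to 3. The labels name no age, treatment or disease model for these mice, and although the series title concerns deletion of Kdm6a, no deletion is named for these 6 libraries. Whether each code stands for its own animal is not stated, and p-values therefore reflect spread among coded specimens only. Beads without tagged ribosomes were not analysed here, so RNA on tagged ribosomes cannot be told apart from RNA that stuck to the beads.

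Type I interferons signal through a receptor made of the chains IFNAR1 and IFNAR2, which bring the kinases TYK2 and JAK1 together. These phosphorylate transcription factors such as STAT2, which acts with IRF9 at the interferon-stimulated response element (ISRE) in the promoters of interferon-stimulated genes. The products of those genes sense foreign nucleic acid, block viral replication or restrain the response itself. Microglia, the resident macrophages of the brain, are known to carry a low interferon signature at rest and a strong one in infection, ageing and models of amyloid disease.

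Library totals ran from 10757351 to 18558497 counts in IP and from 18448897 to 20422140 in input. All 10 microglial markers were higher in IP, where their summed level was 28913 to 36255 CPM (counts per 1000000, scaled by TMM factors) against 424 to 562 CPM in input. The labels give microglia as the cell type of the input libraries too, but 7 neuronal markers summed to 825 to 1043 CPM in IP and to 7868 to 9363 CPM in input. Of 6 endothelial markers, 5 were higher in IP, with a summed level of 134 to 239 CPM in IP and 9.37 to 42.0 CPM in input. Of 8 markers of other myeloid cells none was called higher or lower (edgeR), none had an unadjusted p below 0.05, and only Mrc1 had enough counts to be tested. Cd163, Lyve1, F13a1, Ly6c2 and S100a8 had no count in any IP library, and the 8 summed to 1.54 to 4.58 CPM in IP and 0.833 to 1.95 CPM in input. Pair 3 stood apart in the summed level of 4 choroid plexus markers. It was 613, 490 and 11.2 CPM in IP libraries 1, 2 and 3. In input libraries 1, 2 and 3 it was 3786, 2669 and 28.2 CPM. The marker Kl did not set input library 3 apart, at 43.3, 20.8 and 20.3 CPM in input libraries 1, 2 and 3. None of the 4 was called (edgeR), and none had an unadjusted p below 0.05. The part that endothelial or choroid plexus RNA takes in the interferon genes was not tested. In bulk libraries more RNA per cell and more cells of a type cannot be told apart.

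The receptor chains, the sensors of foreign RNA and a set of restriction factors were higher in IP. Of 8 genes of the IFIT and OAS families, known for strong induction by interferon, 3 had enough counts to be tested and none of these was called. Whether families differed from each other was not tested. Of the 35 genes, 26 passed the filter on low counts and were tested, 16 were higher in IP, none was lower and 10 were not called (edgeR quasi-likelihood test, Benjamini-Hochberg adjusted p below 0.05). No gene of the 26 was lower at an unadjusted p below 0.05, and none was called lower by DESeq2 or limma-voom. Over all 16196 tested genes the share higher in IP was 23.8% and the share lower 23.9%, or 47.7% in either direction. Of the 26 tested interferon genes, 11 passed the filter through the 3 IP libraries alone and 3 through the 3 input libraries alone, so the share that was higher partly follows from the filter. All of these 11 but Isg15 and Zbp1 were called higher. The 3 that passed through input alone, Ifit2, Oasl2 and Ifitm2, were not called. The median log2 fold (IP over input) of the 26 was 2.97, against -0.10 for all tested genes and 5.93 for the microglial markers. The 3 genes with no input count have log2 lower bounds of 5.52 to 6.18, all above that median, so setting them to their bounds leaves it at 2.97. By pair, the median log2 difference of CPM + 0.5 was 2.04, 2.23 and 2.76 in pairs 1, 2 and 3. All 3 IP libraries lay above all 3 input libraries for 18 of the 26 tested genes, against 29.0% of all tested genes. They lay below for none of the 26, against 32.9% of all tested genes, and for Ifit1 among the 9 genes not tested. Without pair 3, 17 genes were called higher: Zbp1 and Rsad2 were gained and Stat2 was lost. The summed level of the 35 genes was 598, 751 and 648 CPM in IP libraries 1, 2 and 3 and 153, 158 and 156 CPM in input libraries 1, 2 and 3.

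**Figure D1:**
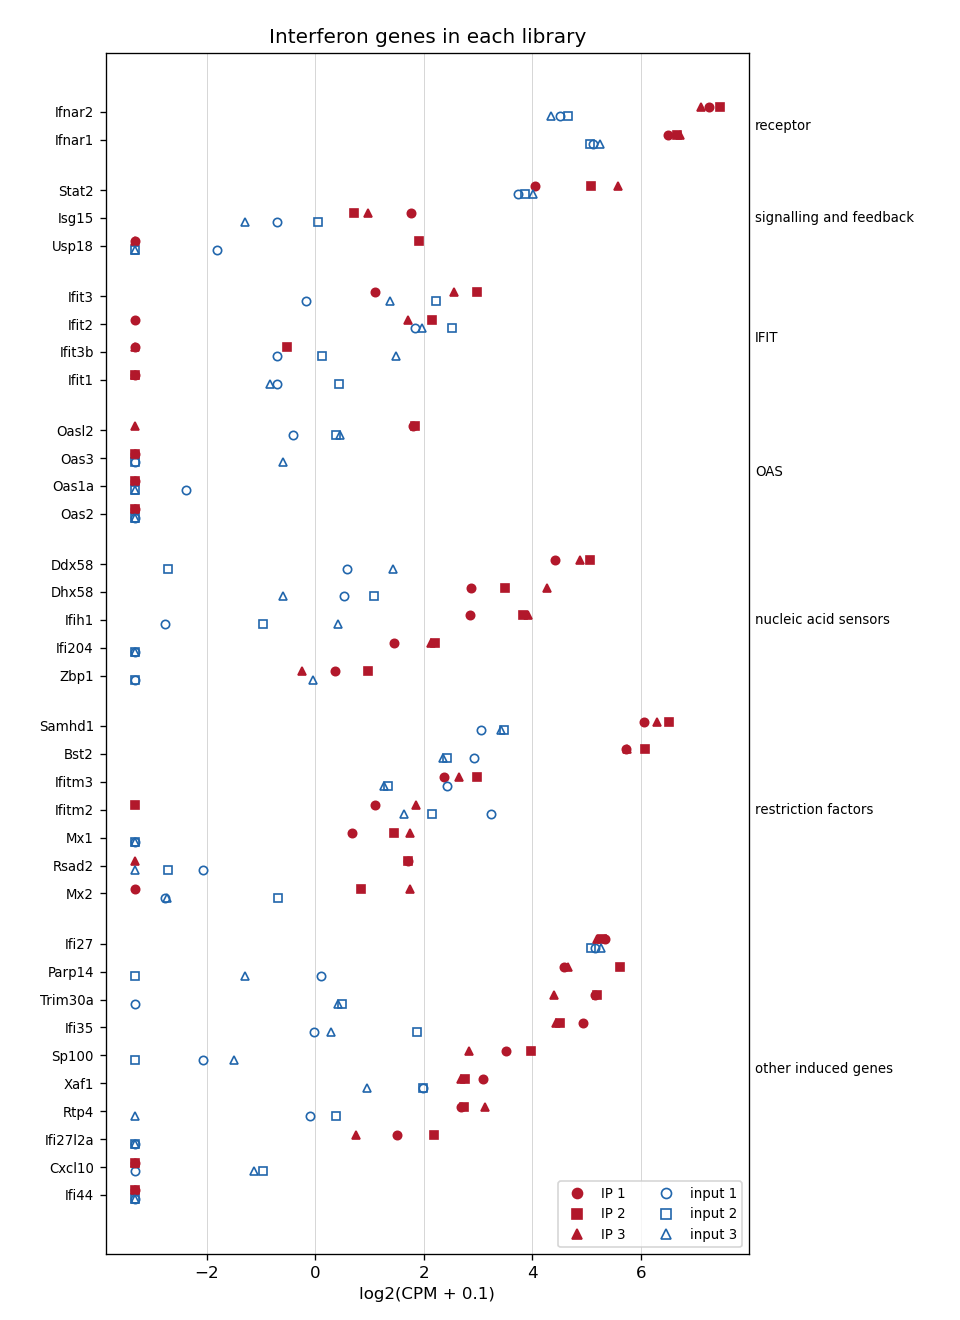
Level of each of the 35 interferon genes in each library, as log2(CPM + 0.1), grouped by role and ordered by mean level within a role. Filled red symbols are IP libraries and open blue symbols input libraries, with the symbol shape giving the pair, and points at the left edge are counts of 0. Receptor chains and most sensors separate into an IP cloud on the right and an input cloud on the left, while Ifi27 overlaps. Ifit1, Oas1a, Oas3 and Cxcl10 have counts in input only.

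The promoters of 24 of the 35 genes were matched by symbol in the RefSeq promoter table (GRCm38.p6), which holds the 250 bases before each annotated start and the 50 after it. The ISRE core was searched as 2 runs of TTTC with any 2 bases between them or, on the other strand, 2 runs of GAAA with any 2 bases between them, overlaps included. It was found for 15 of these 24 genes, against 3.99% of the 27025 genes in the table. The genes were listed as interferon-induced, so a high share belongs to the choice of genes. The core was present for 5 of the 10 matched genes that were higher in IP, 4 of the 7 that were not called and 6 of the 7 that were not tested. The following stretches of 100 bases lie upstream of the start. They are shown because genes called higher and genes not called or not tested carry the same element. Each reads 5′ to 3′ on the strand of its gene, with the bases of the ISRE cores in capitals. The first 3 belong to genes that were higher in IP, and the other 5 to genes that were not called or not tested.
Stat2 (chr10:128270248-128270347, plus strand): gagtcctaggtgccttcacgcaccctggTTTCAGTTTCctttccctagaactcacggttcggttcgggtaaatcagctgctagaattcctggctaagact
Bst2 (chr8:71537533-71537632, minus strand): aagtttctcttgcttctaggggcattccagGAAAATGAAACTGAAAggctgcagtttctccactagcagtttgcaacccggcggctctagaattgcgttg
Trim30a (chr7:104465194-104465293, minus strand): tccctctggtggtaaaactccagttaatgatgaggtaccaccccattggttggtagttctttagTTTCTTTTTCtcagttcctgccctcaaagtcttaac
Isg15 (chr4:156200827-156200926, minus strand): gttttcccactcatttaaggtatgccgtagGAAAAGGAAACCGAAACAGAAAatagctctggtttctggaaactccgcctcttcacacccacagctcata
Ifit1 (chr19:34640755-34640854, plus strand): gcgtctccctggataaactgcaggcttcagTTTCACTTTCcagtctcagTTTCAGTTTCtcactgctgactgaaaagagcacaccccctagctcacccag
Ifit3 (chr19:34583343-34583442, plus strand): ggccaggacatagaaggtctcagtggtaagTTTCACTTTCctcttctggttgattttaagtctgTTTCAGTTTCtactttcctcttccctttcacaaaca
Ifit3b (chr19:34607739-34607838, plus strand): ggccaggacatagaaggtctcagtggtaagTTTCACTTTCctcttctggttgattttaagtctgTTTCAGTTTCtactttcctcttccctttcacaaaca
Ifitm2 (chr7:140955988-140956087, minus strand): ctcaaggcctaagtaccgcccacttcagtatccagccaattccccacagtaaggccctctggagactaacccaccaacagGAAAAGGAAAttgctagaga
Isg15 had 3 overlapping cores and Bst2 had 2, while Ifit1 had 2 separate cores. The stretches of Ifit3 and Ifit3b, neighbours on chromosome 19, are letter for letter the same. No core was found in the windows of Ifnar1 and Ifnar2. The interferon-gamma activated site (GAS), searched as TTCNNNGAA, was found in both, and in 9.55% of all genes in the table. A match describes letters only, and no binding was measured.

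Both receptor chains were higher in IP. Ifnar1 (chromosome 16, 91485238 to 91507441, plus strand, GRCm38) encodes the chain that docks TYK2. It stood at 90.5, 102 and 105 CPM in IP libraries 1, 2 and 3 and at 34.7, 33.5 and 38.1 CPM in input libraries 1, 2 and 3. The groups did not overlap, and the log2 fold came to 1.48 (SE 0.17, edgeR adjusted p = 7.4e-05). Ifnar2, the high-affinity chain that docks JAK1, stood at 152, 175 and 138 CPM in IP libraries 1, 2 and 3 and at 22.8, 25.2 and 20.1 CPM in input libraries 1, 2 and 3. This gave a log2 fold of 2.77 (SE 0.18, adjusted p = 2.2e-06). The count ratio of the chains was set beside the folds. Ifnar2 had 1.68, 1.71 and 1.32 counts per count of Ifnar1 in IP libraries 1, 2 and 3 and 0.657, 0.753 and 0.528 in input libraries 1, 2 and 3. On the log2 scale this ratio differed by 1.29 between the groups, and all 3 IP values lay above all 3 input values. With 3 against 3 libraries an exact two-sided permutation test cannot go below p = 0.1, the value it gave. That test therefore cannot decide whether the ratio differed, and no other test of the ratio was run. Of the 50-base stretches of Ifnar2 transcripts, 7.89% also occur in the overlapping gene model Gm21970.

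Genes of signalling and feedback were lower in level and less certain. Stat2, which carries the activation domain of the ISRE-binding complex, stood at 16.6, 33.9 and 48.0 CPM in IP libraries 1, 2 and 3 and at 13.3, 14.5 and 16.1 CPM in input libraries 1, 2 and 3. IP library 1 lay barely above the highest input library. Fitted over the libraries, the log2 fold equalled 1.16 (SE 0.37, adjusted p = 0.027). The call held without IP library 1 (adjusted p = 0.0035) and without pair 1 (adjusted p = 0.022), and was lost with a 2-fold minimum (adjusted p = 0.35). Without IP library 2 or 3 the adjusted p was 0.071 and 0.091, without input library 1, 2 or 3 it was 0.087, 0.080 and 0.060, and without pair 2 or 3 it was 0.18 and 0.15. Isg15, a ubiquitin-like protein that is joined to other proteins after interferon, stood at 3.29, 1.54 and 1.87 CPM in IP libraries 1, 2 and 3 and at 0.512, 0.937 and 0.308 CPM in input libraries 1, 2 and 3. The groups did not overlap, but with 99 and 35 counts in all the gene was not called (log2 fold 1.92, SE 1.19, adjusted p = 0.22). Usp18, the protease that removes ISG15 and also silences IFNAR2, had 43 counts in IP library 2 and none in IP libraries 1 and 3. In input it had 4 counts, all in library 1, and it did not pass the filter.

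The IFIT genes, which encode proteins that bind foreign RNA and block its translation, gave no call in IP. Of the 4 genes, 2 were tested and neither was called higher or lower by edgeR, DESeq2 or limma-voom, with no unadjusted p below 0.05. Ifit3 stood at 2.05, 7.76 and 5.79 CPM in IP libraries 1, 2 and 3 and at 0.792, 4.58 and 2.51 CPM in input libraries 1, 2 and 3. Each IP library exceeded its paired input library, with overlapping groups (log2 fold 0.98, SE 0.90, adjusted p = 0.41). Ifit2 stood at 0, 4.35 and 3.18 CPM in IP libraries 1, 2 and 3 and at 3.49, 5.67 and 3.80 CPM in input libraries 1, 2 and 3. The IP library of every pair was the lower one (log2 fold -0.79, SE 1.31, adjusted p = 0.66), and the log2 fold ran from -3.14 to -0.20 over the alternatives. Ifit1 had no count in any IP library and 44 counts in input, at 0.512, 1.25 and 0.462 CPM in input libraries 1, 2 and 3. With 3 counts over the IP group as the floor, Ifit1 was at least 9.98-fold lower in IP, a bound that was 5.47 without IP library 1, 6.67 with input library 2 left out, 6.38 without pair 1 and 4.76 without pair 2. It did not pass the filter and was not tested. Ifit3b had 7 counts in IP, all in library 2, and 83 in input, did not pass the filter, and was called lower without IP library 2. As with their promoters, the transcripts of Ifit3 and Ifit3b are close copies: 51.2% of the 50-base stretches of Ifit3 occur in Ifit3b, so reads could be split between them and both values are uncertain.

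The OAS genes, whose enzymes make the 2-5A signal that activates RNase L, had few counts. Oas2 had no count in any library, Oas1a had 2 counts in input library 1 alone, and Oas3 had 11 counts in input library 3 alone. All 3 were at 0 in every IP library, and by counting error alone a count of 0 allows up to 0.162 to 0.280 CPM there. Oasl2, an OAS-like gene, was the only one tested. It stood at 3.40, 3.50 and 0 CPM in IP libraries 1, 2 and 3 and at 0.652, 1.2 and 1.28 CPM in input libraries 1, 2 and 3. Pairs 1 and 2 were higher in IP and pair 3 was not, and the gene was not called (log2 fold 1.14, SE 1.51, adjusted p = 0.58, range 0.034 to 1.86 over the alternatives). No OAS gene was called by DESeq2 or limma-voom either, and none had an unadjusted p below 0.05. Of the stretches of Oas1a, 57.6% occur in its neighbour Oas1g. Among OAS genes of the further list, named after their values were seen, Oas1b had 74 counts in IP library 1 and none elsewhere. Oasl1 had 30, 33 and 0 counts in IP libraries 1, 2 and 3 and none in input. Oas1c had 0, 0 and 40 counts in IP libraries 1, 2 and 3 and 12, 39 and 0 in input libraries 1, 2 and 3. Oas1c was tested and not called, and the others did not pass the filter.

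Of 5 sensors of foreign nucleic acid, 4 were higher in IP with groups that did not overlap. Among all tested genes 23.8% were higher, and 29.0% had all 3 IP libraries above all 3 input libraries. Ddx58, Ifih1, Zbp1 and Ifi204 passed the filter through the 3 IP libraries alone, so the count of sensors higher in IP partly follows from the filter. Ddx58 encodes RIG-I, the sensor of RNA with triphosphate ends. It stood at 21.3, 33.2 and 29.3 CPM in IP libraries 1, 2 and 3 and at 1.40, 0.0521 and 2.62 CPM in input libraries 1, 2 and 3. The fitted log2 fold came to 4.36 (SE 0.85, adjusted p = 0.0023), and it changed to 5.21 when input library 3 was left out, 3.64 without pair 2 and 5.16 without pair 3. Ifih1 encodes MDA5, the sensor of long double-stranded RNA. It stood at 7.12, 14.2 and 15.0 CPM in IP libraries 1, 2 and 3 and at 0.0466, 0.416 and 1.23 CPM in input libraries 1, 2 and 3. Fitted over the libraries, the log2 fold equalled 4.41 (SE 0.98, adjusted p = 0.0047), or 5.66 without input library 3 and 5.47 without pair 3. Without pair 2 it was no longer called (adjusted p = 0.086). The third RIG-I-like receptor gene is Dhx58, which encodes LGP2, a regulator of the other sensors that lacks a signalling domain. It stood at 7.23, 11.2 and 19.1 CPM in IP libraries 1, 2 and 3 and at 1.35, 2.03 and 0.564 CPM in input libraries 1, 2 and 3. The fitted log2 fold came to 3.24 (SE 0.68, adjusted p = 0.0035), or 2.41 without pair 3. All 3 genes of the RIG-I-like family were thus higher in IP in every pair. Dhx58 and Ifi35 each overlap a gene on the other strand, and the strand setting of the counting is not known.

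Ifi204, of the DNA-binding p200 family, had 148 counts in IP, at 2.64, 4.52 and 4.30 CPM in IP libraries 1, 2 and 3, and none in input. It was at least 72.5-fold higher in IP at a floor of 3 counts over the input group, and called (adjusted p = 0.0041). That bound fell to 46.6 with input library 1 left out, 44.4 without pair 2 and 45.7 without pair 3. Of its 50-base stretches, 20.0% occur in other genes, most of them in Ifi211, which had no count in any library. Zbp1, the sensor of Z-form nucleic acid that triggers necroptosis, was not called. It stood at 1.19, 1.88 and 0.747 CPM in IP libraries 1, 2 and 3, while input libraries 1 and 2 had no count and input library 3 stood at 0.872 CPM (log2 fold 2.1, SE 1.88, adjusted p = 0.40). Without pair 3 it was called, with no count left in input (adjusted p = 0.046).

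Of 7 restriction factors, 6 were tested and 3 were higher in IP, while 23.8% of all tested genes were higher. Mx1, among these 3, passed the filter through the 3 IP libraries alone. Samhd1, which starves reverse transcription of nucleotides, stood at 66.3, 91.1 and 79.0 CPM in IP libraries 1, 2 and 3 and at 8.24, 11.1 and 10.6 CPM in input libraries 1, 2 and 3. This gave a log2 fold of 2.98 (SE 0.23, adjusted p = 6.2e-06). Bst2, the membrane protein tetherin that holds budding virions at the cell surface, stood at 53.2, 67.4 and 53.7 CPM in IP libraries 1, 2 and 3 and at 7.5, 5.31 and 5.03 CPM in input libraries 1, 2 and 3. Fitted over the libraries, the log2 fold equalled 3.28 (SE 0.26, adjusted p = 7.9e-06). For both genes the IP libraries lay far above the input libraries and close to each other.

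Mx1, a dynamin-like GTPase against influenza virus that is nonfunctional in C57BL/6 mice, had 94 counts in IP and none in input. Its level was 1.51, 2.64 and 3.27 CPM in IP libraries 1, 2 and 3. With 3 counts over the input group as the floor this was at least 46.0-fold higher in IP (adjusted p = 0.0090). The bound changed to 29.6 when input library 1 was left out, 29.4 without pair 2 and 26.4 without pair 3. Its neighbour Mx2 was at 0, 1.71 and 3.27 CPM in IP libraries 1, 2 and 3 and at 0.0466, 0.521 and 0.0513 CPM in input libraries 1, 2 and 3. The gene was not called (log2 fold 2.96, SE 1.94, adjusted p = 0.24, range 1.41 to 4.86 over the alternatives). Rsad2, which encodes viperin, had 59, 37 and 0 counts in IP libraries 1, 2 and 3 and 3, 1 and 0 counts in input libraries 1, 2 and 3. It did not pass the filter, and was called higher without IP library 3 and without pair 3.

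The small membrane proteins of the IFITM family, which hinder fusion of viruses with endosomes, were not called. Ifitm3 stood at 5.07, 7.85 and 6.16 CPM in IP libraries 1, 2 and 3 and at 5.26, 2.45 and 2.31 CPM in input libraries 1, 2 and 3 (log2 fold 0.93, SE 0.66, adjusted p = 0.29). Only input library 1 reached the range of the IP libraries. Ifitm2 stood at 2.05, 0 and 3.55 CPM in IP libraries 1, 2 and 3 and at 9.36, 4.37 and 3.03 CPM in input libraries 1, 2 and 3 (log2 fold -1.58, SE 1.25, adjusted p = 0.34). Of its 50-base stretches, 48.5% occur in other gene models, so this value is uncertain.

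**Figure D2:**
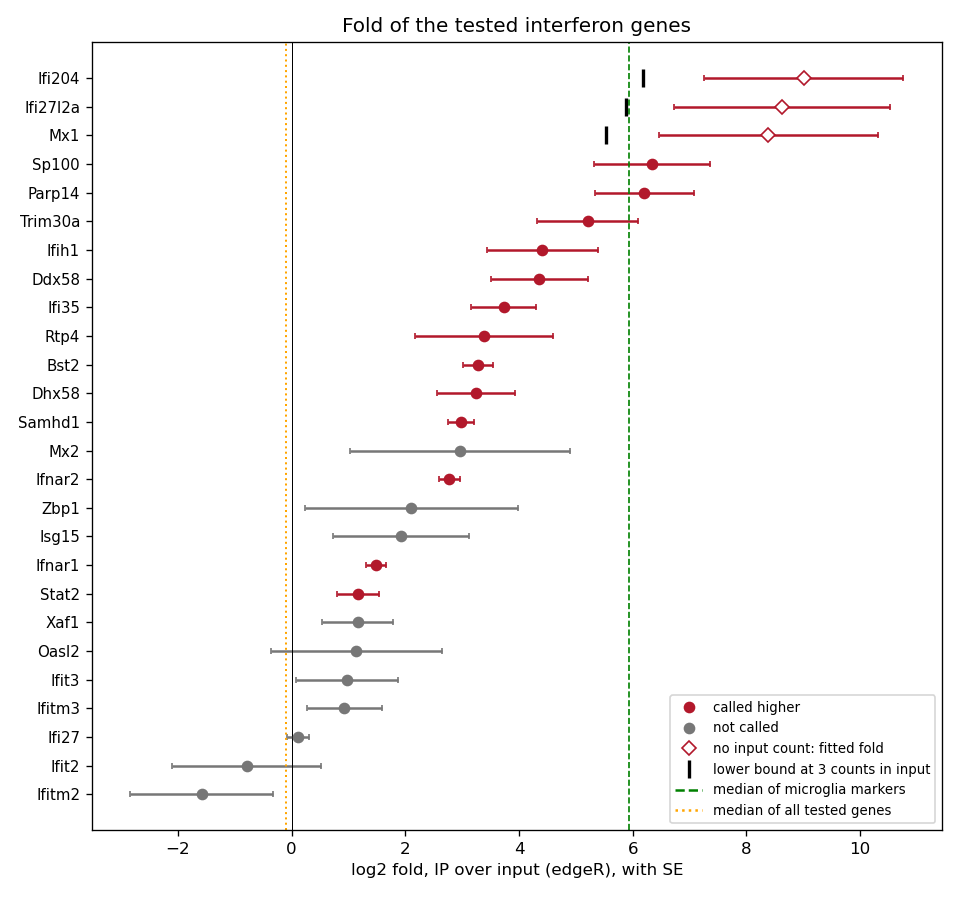
Log2 fold of IP over input with its SE for the 26 tested interferon genes, sorted by fold. Red marks the 16 genes that were higher in IP and grey the 10 that were not called. Open diamonds are the 3 genes with no input count, whose fitted fold depends on the prior count, with a black bar at the lower bound. The dashed green line is the median of the 10 microglial markers (5.93) and the dotted orange line that of all tested genes (-0.10).

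Of the 10 other induced genes, 8 were tested and 6 were higher in IP, while 23.8% of all tested genes were higher. Parp14, Sp100, Trim30a, Rtp4 and Ifi27l2a passed the filter through the 3 IP libraries alone, so this count partly follows from the filter. Parp14, an ADP-ribosyltransferase, stood at 24.0, 49.1 and 25.3 CPM in IP libraries 1, 2 and 3 and at 0.978, 0 and 0.308 CPM in input libraries 1, 2 and 3. The fitted log2 fold came to 6.20 (SE 0.87, adjusted p = 0.00029), and it changed to 7.65 when input library 1 was left out, 7.84 without pair 1 and 5.22 without pair 2. Sp100, a component of nuclear PML bodies, stood at 11.3, 15.6 and 7.0 CPM in IP libraries 1, 2 and 3 and had 8 counts in all of input. This gave a log2 fold of 6.34 (SE 1.02, adjusted p = 0.00068), or 7.12 with input library 3 left out, 5.48 without pair 2 and 7.37 without pair 3. The fitted folds of these genes rest on very few input counts.

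Trim30a, a ubiquitin ligase that dampens Toll-like receptor signalling in mice, stood at 35.8, 36.3 and 21.1 CPM in IP libraries 1, 2 and 3 and at 0, 1.30 and 1.23 CPM in input libraries 1, 2 and 3. Fitted over the libraries, the log2 fold equalled 5.21 (SE 0.89, adjusted p = 0.0010), or 4.60 without input library 1 and 4.5 without pair 1. Ifi35 stood at 30.4, 22.6 and 21.6 CPM in IP libraries 1, 2 and 3 and at 0.885, 3.59 and 1.13 CPM in input libraries 1, 2 and 3. The fitted log2 fold came to 3.73 (SE 0.57, adjusted p = 0.00051), or 4.59 without input library 2 and 4.67 without pair 2. Both genes were higher in IP in all 3 pairs, with no overlap.

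Ifi27l2a had 120 counts in IP, at 2.75, 4.43 and 1.59 CPM in IP libraries 1, 2 and 3, and none in input. It was at least 58.8-fold higher in IP (adjusted p = 0.0074), with bounds of 37.8 without input library 1 and 31.8 without pair 2. Its relative Ifi27, a protein of the mitochondrial and nuclear membrane, was not called. It was at 40.6, 39.0 and 36.5 CPM in IP libraries 1, 2 and 3 and at 35.4, 33.6 and 38.5 CPM in input libraries 1, 2 and 3. This gave a log2 fold of 0.11 (SE 0.19, adjusted p = 0.67), and its sign turned with upper-quartile scaling.

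Rtp4, a chaperone of G protein-coupled receptors, stood at 6.31, 6.57 and 8.69 CPM in IP libraries 1, 2 and 3 and at 0.838, 1.2 and 0 CPM in input libraries 1, 2 and 3. This gave a log2 fold of 3.39 (SE 1.22, adjusted p = 0.044). The call was lost with upper-quartile scaling (adjusted p = 0.052), with library totals (adjusted p = 0.051) and with a 2-fold minimum (adjusted p = 0.096). With the title code as a replicate block the adjusted p was 0.058, and without IP library 1, 2 or 3 it was 0.071, 0.076 and 0.063. Without input library 1 or 2 it was 0.099 and 0.066, and without pair 1 or 2 it was 0.16 and 0.14. The fold was 4.04 without input library 2, 2.79 with input library 3 left out, 4.11 without pair 2 and 2.63 without pair 3. Of the 50-base stretches of Rtp4 transcripts, 11.6% also occur in the overlapping gene model Gm45338. Xaf1, which antagonises the apoptosis inhibitor XIAP, stood at 8.42, 6.65 and 6.35 CPM in IP libraries 1, 2 and 3 and at 3.87, 3.85 and 1.85 CPM in input libraries 1, 2 and 3. The groups did not overlap, and the gene was not called (log2 fold 1.16, SE 0.62, adjusted p = 0.16).

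Cxcl10, the chemokine that draws CXCR3-bearing T cells and is a common readout of interferon in brain, had no count in any IP library and 8 and 7 counts in input libraries 2 and 3. It overlaps Art3 on the other strand. Ifi44 had no count in any library.

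The order of the levels within a group was read per kilobase of exon, since longer genes collect more counts. In IP, Bst2 led with 64.3 ± 8.92 CPM per kilobase (SD, n = 3), followed by Ifnar2 with 46.6 ± 5.56, Ifi27 with 26.4 ± 1.41, Ifnar1 with 16.7 ± 1.30 and Ifi35 with 14.4 ± 2.79 CPM per kilobase. The 3 libraries did not overlap between Bst2 and Ifnar2, Ifnar2 and Ifi27, or Ifi27 and Ifnar1, but did between Ifnar1 and Ifi35. In input Ifi27 led with 24.4 ± 1.71 CPM per kilobase, and the next 4, Ifitm2, Ifnar2, Bst2 and Ifnar1, overlapped at 8.53 ± 5.10, 6.83 ± 0.772, 6.58 ± 1.5 and 5.97 ± 0.400 CPM per kilobase. For scale, the microglial marker Tmem119 was at 966 ± 70.0 CPM per kilobase in IP and 11.3 ± 1.03 in input. Mx1, Ifit2, Rsad2, Mx2, Usp18, Oasl2 and Zbp1 lay between 0.360 and 0.654 CPM per kilobase in IP.

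**Figure D3:**
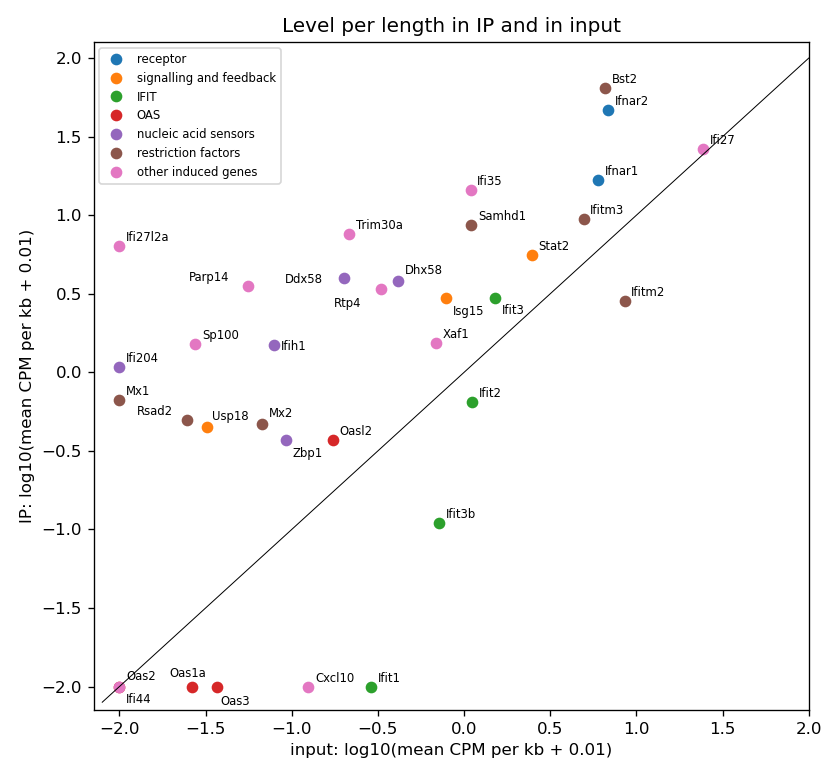
Mean level of each of the 35 interferon genes in IP (vertical) against input (horizontal), as log10 of CPM per kilobase of exon + 0.01, coloured by role. Points above the diagonal are higher in IP, and points on the left or lower edge have no count in that group. Bst2 and Ifnar2 are highest in IP at 64.3 and 46.6 CPM per kilobase, and Ifi27 lies close to the diagonal.

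The IP libraries differed among themselves. Of the 29 interferon genes with an IP count, 16 were highest in IP library 2, 8 in library 3 and 5 in library 1, and 17 were lowest in library 1. Ties went to the library with the lower number, so these 17 include Usp18 and Ifit3b, which had no count in IP libraries 1 and 3. Among the 26 tested genes, 14 were highest in IP library 2, as were 38.5% of all tested genes with an IP count, and 15 were lowest in library 1, as were 32.5% of all tested genes. The 10 microglial markers summed to 28913, 36255 and 33491 CPM in IP libraries 1, 2 and 3. Their sum was thus also highest in library 2 and lowest in library 1. IP library 2 had the least endothelial marker RNA, at 134 CPM against 239 and 236 CPM in libraries 1 and 3. The part of either marker set in the pattern was not tested. The low genes were uneven: Oasl2 had 63 and 41 counts in IP libraries 1 and 2 and none in library 3, and Rsad2 had 59 and 37 counts and none. Library 3 was also the IP library with the least choroid plexus marker RNA, as given above, and the part of these markers was not tested.

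The rest of the pathway was read from 4 lists. The route through the filter was not counted for these lists, so its part in their shares is not known. None of 17 interferon ligand genes in the table, among them Ifnb1, Ifng and 10 Ifna genes, had a single count in any library. By counting error alone this limits each ligand to at most 0.0732 CPM over the IP group and 0.0499 CPM over the input group. The limit leaves out spread between libraries and does not show that no cell made the ligand. Of 15 other receptor and JAK-STAT genes, 12 were higher in IP and none was lower (median log2 fold 2.16, edgeR, no unadjusted p below 0.05 for a lower gene, and none lower by DESeq2 or limma-voom). The share higher was 80%, against 23.8% of all tested genes, and 23.9% of all tested genes were lower. Ifngr2, named after its values were seen, was among those higher at a log2 fold of 0.43 (edgeR adjusted p = 0.03). Its call was lost in 12 alternatives, among them upper-quartile scaling (adjusted p = 0.098) and library totals (adjusted p = 0.084). Ifngr1, the ligand-binding chain of the interferon-gamma receptor, averaged 530 ± 81.9 CPM in IP and 13.4 ± 0.404 CPM in input (SD, n = 3 each, log2 fold 5.31, adjusted p = 1e-07). Ptpn6, the phosphatase SHP-1 of blood cells, averaged 361 ± 83.5 CPM in IP and 3.84 ± 0.984 CPM in input (log2 fold 6.55). Jak1 averaged 265 ± 14.1 CPM in IP and 92.3 ± 14.1 CPM in input (log2 fold 1.52). Irf9, which acts with Stat2 at the ISRE and was named after its values were seen, averaged 62.1 ± 17.9 CPM in IP and 5.96 ± 0.404 CPM in input (log2 fold 3.38, adjusted p = 8.4e-06).

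Of 18 genes of the induction pathway, which turns the sensing of nucleic acid into interferon, 16 were tested and 14 were higher in IP (median log2 fold 2.97). The share higher was 87.5%, against 23.8% of all tested genes. None of the 16 was lower by edgeR, DESeq2 or limma-voom, or at an unadjusted p below 0.05. Unc93b1, the escort of the endosomal Toll-like receptors, averaged 1175 ± 183 CPM in IP and 19.2 ± 4.28 CPM in input (log2 fold 5.93, adjusted p = 1.5e-07). Tmem173, which encodes STING, averaged 406 ± 59.2 CPM in IP and 7.62 ± 2.05 CPM in input (log2 fold 5.73). Irf5, a transcription factor of inflammatory macrophages, averaged 333 ± 31.5 CPM in IP and 21.3 ± 2.38 CPM in input (log2 fold 3.97). Irf7, named after its values were seen, is itself induced by interferon and amplifies it. It was at 1.62, 3.92 and 2.05 CPM in IP libraries 1, 2 and 3 and at 2.61, 2.76 and 0.564 CPM in input libraries 1, 2 and 3. This gene was not called (log2 fold 0.35, adjusted p = 0.81), with a value of -0.12 without IP library 2 and -0.11 without input library 3.

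Of 49 further interferon-stimulated genes in the table, 32 were tested, 23 were higher in IP and none was lower (median log2 fold 3.33), while 2 were lower at an unadjusted p below 0.05. The share higher was 71.9%, against 23.8% of all tested genes. Lgals9, a galectin, averaged 289 ± 44.8 CPM in IP and 6.34 ± 1.94 CPM in input (log2 fold 5.51, adjusted p = 4.3e-07). Lgals3bp, a secreted binding partner of galectin-3, averaged 254 ± 19.2 CPM in IP and 21.2 ± 0.608 CPM in input (log2 fold 3.58). Adar, the editing enzyme that marks the cell's own double-stranded RNA, averaged 137 ± 12.3 CPM in IP and 136 ± 10.6 CPM in input, and the sign of its log2 fold of 0.02 changed with the scaling. Both genes lower at the unadjusted p were named after their values were seen. Cmpk2, the neighbour of Rsad2, was at 4.21, 4.18 and 0 CPM in IP libraries 1, 2 and 3 and at 17.2, 18.9 and 13.7 CPM in input libraries 1, 2 and 3 (log2 fold -2.55, adjusted p = 0.056). It was called lower with the replicate block (adjusted p = 0.044), with DESeq2 (adjusted p = 0.014), with limma-voom (adjusted p = 0.020), with upper-quartile scaling (adjusted p = 0.044), with library totals (adjusted p = 0.045), without IP library 3 (adjusted p = 0.0019) and without pair 3 (adjusted p = 0.0052). Ifit1bl1, of the IFIT cluster, was at 0, 0.597 and 0 CPM in IP libraries 1, 2 and 3 and at 2.79, 1.87 and 5.44 CPM in input libraries 1, 2 and 3 (log2 fold -4.07, adjusted p = 0.078). It was called lower with DESeq2 (adjusted p = 0.017) and limma-voom (adjusted p = 0.027), without IP library 2 (adjusted p = 0.011) and without pair 2 (adjusted p = 0.033).

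**Figure D4:**
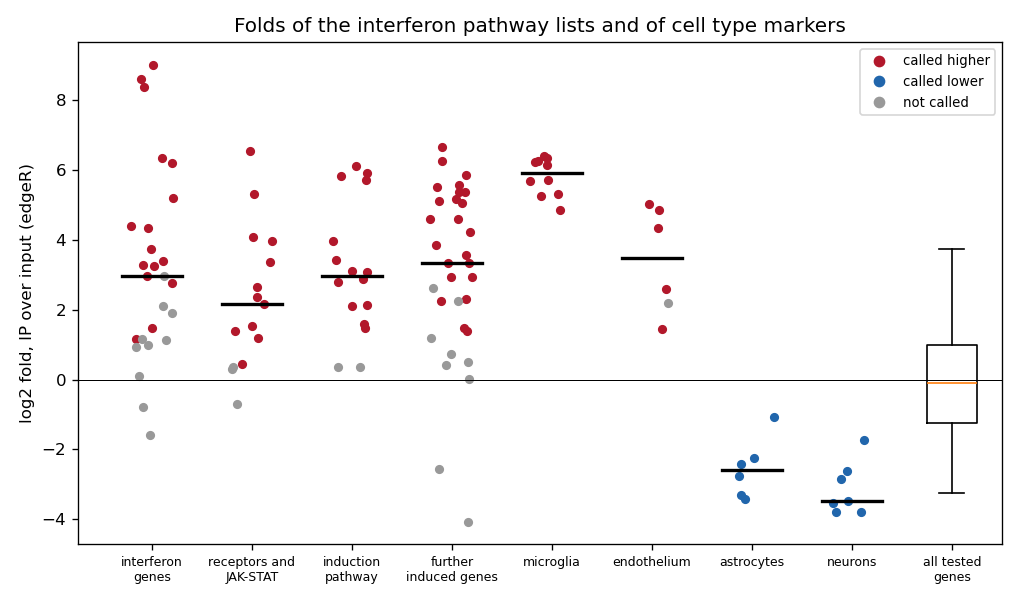
Log2 fold of IP over input for the tested genes of the interferon set, of 3 further pathway lists and of 4 marker lists, with the median of each as a black line and all tested genes as a box (quartiles, whiskers from the 5th to the 95th percentile). Red points were called higher, blue points lower and grey points not called. The interferon set runs from -1.58 to 9.01 with a median of 2.97, while the microglial markers run from 4.85 to 6.41.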

How the data were processed

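The authors deposited whole-number read counts per Ensembl gene, not normalized, for 6 libraries. Per the labels' protocols, libraries were stranded and made after mRNA enrichment. The submitters' processing notes list bcl2fastq 2.17, FastQC, Trimmomatic and mm10, while for the aligner, counter, strand setting and annotation release the sources used here name nothing. Symbols, positions and exon lengths are from GENCODE M21 (GRCm38), which named 37693 of 39017 genes.

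Counts were compared with edgeR 4.0.16 (R 4.3.3): TMM factors, filterByExpr with a minimum count of 10, robust quasi-likelihood F test, no block. P-values were adjusted over all tested genes. Folds are IP over input with a prior count of 0.125, SE comes from the F statistic, and CPM uses TMM-scaled totals. A count of 0 was bounded at 3 counts, which covers counting error only, as no molecular identifiers are named. The bounds take the counts of the other group as observed and leave out spread between libraries. That spread can be large at low counts, as for Oas1b with 74, 0 and 0 counts in IP libraries 1, 2 and 3. Libraries of the same group all differed beyond sampling noise (chi-square per degree of freedom of 24.1 or more). Alternatives used DESeq2 1.42.0 and limma 3.58.1, among others. Figures were drawn with Matplotlib 3.10.9.

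The members and lists were chosen with earlier results of these data known. By rule the text gives each library's value for receptor and signalling genes, the 2 most abundant genes of each other role, uncalled and untested genes, and the 3 largest and 3 smallest called folds, plus the 3 most abundant genes of each list. The remaining members were added. The values of 1 list gene are not reported here. Pairs rest on the shared title code. Over the 11187 genes averaging 3 or more on the log2 CPM scale, deviations from group means correlated by 0.06, 0.25 and 0.19 within pairs 1, 2 and 3, and by -0.20 to 0.02 between pairs.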

Additional observations from a re-analysis of the deposited data

How the results depend on the processing

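Between 13 and 17 of the 35 genes were called higher under every alternative run, and 13 to 16 of them were among the 16 of the reported test. Stat2, Rtp4, Ifih1, Mx1 and Ifi27l2a were the genes lost in at least 1 alternative, Mx1 and Ifi27l2a at a minimum count of 30, which left them untested. Rtp4 alone was lost with upper-quartile scaling and with library totals. Folds of uncalled genes moved far, that of Zbp1 from 1.13 to 7.75. The median log2 fold of the tested genes was 2.74 to 3.11 with libraries or pairs left out. With 1 library left out the other group keeps 3 and the spread is pooled. One interferon gene was called lower without IP library 2, Ifit3b, so the count of lower genes ranged from 0 to 1 with libraries or pairs left out. Upper-quartile scaling moved the median of all genes by -0.13 and library totals by -0.10. The sign of Ifi27 turned to -0.014 with upper-quartile scaling. That of Adar turned to -0.11 with upper-quartile scaling and -0.083 with library totals, and ran from -0.073 to 0.090 with libraries or pairs left out. That of Irf7 ran from -0.12 to 0.85. The count of further interferon-stimulated genes lower in IP was 1 with upper-quartile scaling, with library totals and with the replicate block, 2 with DESeq2 and with limma-voom, and 0 to 1 with libraries or pairs left out. Over all genes, a 2-fold minimum left 2176 higher and 2021 lower, and leaving out libraries or pairs gave 2782 to 3910 higher and 2467 to 4192 lower. With the replicate block, 15 interferon genes were higher, all but Rtp4, and of the genes named Cmpk2 alone gained a call. The cause was not tested. The floor of 3 counts for a gene at 0 came to 0.140 to 0.280 CPM per library, which limits what can be said of the IFIT and OAS genes.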
